A study of Mus musculus with 56 samples.

Results

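The genes described here are 8 genes of iron transport and storage: Trf, Tfrc, Slc11a2, Slc40a1, Fth1, Ftl1, Hmox1 and Ireb2. They were taken from the array by gene symbol, which gave 12 probes for these 8 of the 15063 genes with a probe of their own. The list was chosen on earlier results of the same hybridizations, in which values of OV against 3T3 were seen, so the ratios between both lines are given as a description without a test. OV is a line of mouse ovarian surface epithelium and 3T3 is a mouse fibroblast line, and the labels give no treatment, time or culture beyond the line. Each comparison held 4 two-color arrays with dyes swapped, and targets were unamplified cDNA from 100 μg of total RNA or products amplified from 10 ng by IVTIII (3 rounds of T7 transcription), GA (global PCR of polyadenylated cDNA), SMART (PCR after template switching) or SM37 (a modified SMART). By the study's account the 4 arrays without amplification or at 10 ng held a pair of independent replicates per line, hybridized with dye swaps. They are not 4 independent targets, and each SD and n below counts arrays. SMART and GA were also run from 10 pg. Further arrays set parallel amplifications of OV RNA, or of neural stem cell pools, against each other, or an OV target against itself.

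Iron travels in body fluids bound to transferrin, the product of Trf, and cells take it up through the transferrin receptor, Tfrc. Slc11a2, a divalent metal transporter, carries iron from the endosome to the cytosol, the ferritin chains Fth1 and Ftl1 store it, and ferroportin, Slc40a1, exports it. Hmox1 encodes heme oxygenase, which frees iron from heme and is induced by stress, and Ireb2 encodes an RNA-binding regulator that acts on ferritin and transferrin receptor messages according to the iron level. The ovarian surface epithelium is a layer of mesothelial kind that covers the ovary.

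All values below are log2 ratios of OV to 3T3 signal, so that a value above 0 means more signal in OV. The deposited dye ratios were taken as Cy5 divided by Cy3 for this. Cy5 over Cy3 is the likely direction: Cdkn2a, a cell cycle inhibitor known to be lost in 3T3 lines, was at 1.58 ± 0.11 (mean ± SD, n = 4) in unamplified cDNA. The epithelial markers Krt8 (3.44 ± 0.48) and Wt1 (3.65 ± 0.50) and the fibroblast markers Prrx1 (-3.33 ± 0.75) and Thy1 (-0.97 ± 0.12) had opposite signs there. Not every marker followed the label of its line. Of 11 epithelial and ovarian surface markers tested 7 were called higher in OV and 1 lower (Krt18), and of 8 fibroblast markers 3 were called lower in OV and 2 higher (Col1a1 and Col3a1). Macrophage markers, looked at because macrophages handle much iron, were called in 1 of 8 genes (Cd14, 1.26 ± 0.21), with a range over these 8 genes from -0.51 to 1.26. No erythroid marker (1 tested) and no hepatocyte marker (5 tested) was called in unamplified cDNA.

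The 28 arrays of OV against 3T3 differed in how many probes had a value, from 2303 for SMART at 10 pg to 19243 for GA at 10 pg. The first array of GA at 10 pg held 5965 probes, the fewest of its comparison. The first SMART array at 10 ng correlated with the fourth, of opposite dyes, at 0.0927 before turning, where all other pairs of opposite dyes within a comparison were negative. The label of the first IVTIII array names 3T3 in both channels and that of the second GA array at 10 ng describes replicas of OV RNA, so values with and without these arrays are given where a result rests on them. On the plot of arrays with a value, 8 of 8 genes had one on all 4 arrays in unamplified cDNA and SM37, 7 in GA, 6 in IVTIII, SMART and GA at 10 pg, and 3 in SMART at 10 pg.

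**Figure D1:**
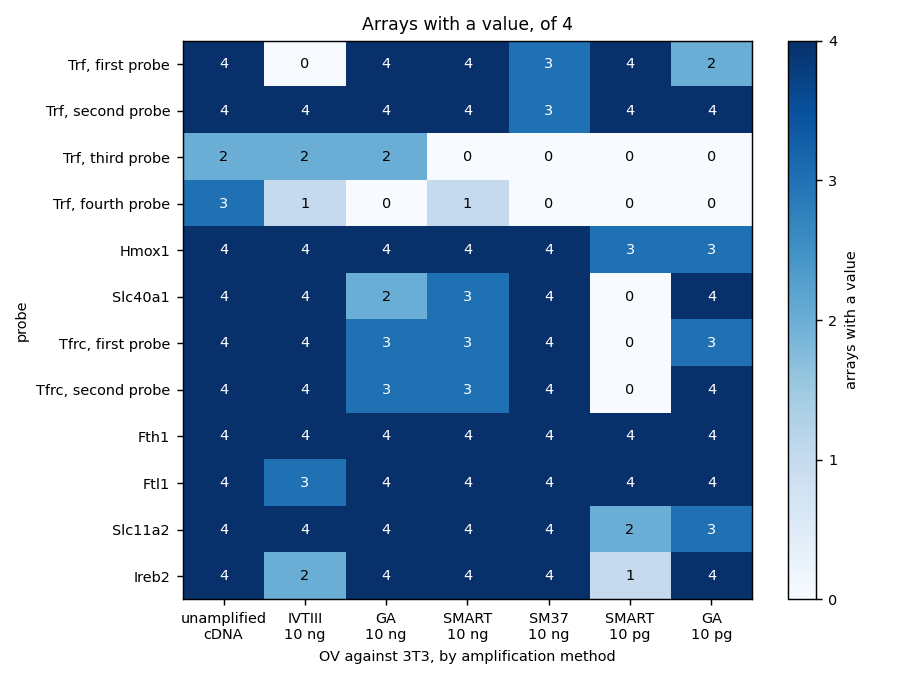
Number of arrays with a value, of 4, for each of the 12 probes (rows) in the 7 comparisons of OV with 3T3 (columns), shaded from 0 to 4. Slc40a1 and both Tfrc probes had no value in SMART at 10 pg, and the third and the fourth Trf probe were mostly missing.

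Trf stood apart from the other genes in unamplified cDNA. Its first probe read 5.24, 4.75, 4.07 and 4.41 on the 4 arrays (mean 4.62 ± 0.50), which is 24.5-fold higher signal in OV. Its second probe read 5.01, 4.94, 4.41 and 4.81 (mean 4.79 ± 0.27), or 27.7-fold. These were the second highest and the highest mean among 12866 probes with a value on all 4 arrays. The third and the fourth Trf probe did not show this ratio: the third read -0.74 and 0.67 on the only 2 arrays with a value, and the fourth read 0.59, 0.91 and 0.84 on 3 arrays. Mean values of the gene therefore depend on the probes taken, being 3.26 over all 4 probes and 4.70 over both complete ones. Where on the transcript each probe lies is not given in the sources used here.

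After amplification the Trf ratio was smaller in every comparison. The SD of mean ratios over all complete probes differed too, at 0.525 in unamplified cDNA, 0.667 in IVTIII and 0.485 in GA at 10 ng. It was 0.248 in SMART, 0.445 in SM37, 0.312 in SMART at 10 pg and 0.851 in GA at 10 pg. The study reports that SMART reduced expression ratios in a linear way. How much of the fall of Trf goes beyond such a general change was not tested. In SMART at 10 ng the first probe read 1.09, 1.88, 2.38 and 1.69 (mean 1.76 ± 0.53) and the second 0.99, 2.47, 3.04 and 2.24 (mean 2.19 ± 0.86). The first SMART array was the lowest for both probes, and without it the means were 1.98 and 2.58. Although smaller, the second probe still had the highest mean of 9029 complete probes and the first had rank 5. From 10 pg of RNA, SMART gave 1.27, 2.65, 1.44 and 1.58 for the first probe (mean 1.73 ± 0.63) and 0.91, 2.30, 1.61 and 1.80 for the second (mean 1.66 ± 0.58), ranks 2 and 3 of 1288 complete probes. Arrays of SMART at both input amounts overlapped for each probe.

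In GA at 10 ng the probes of Trf moved apart. The second probe read 1.81, 1.91, 1.35 and 2.04 (mean 1.78 ± 0.30) and the first 0.63, 0.33, 1.14 and 1.71 (mean 0.95 ± 0.61), lower than the second on each array. Without the second GA array the means were 1.73 and 1.16. SM37 gave 0.88, 0.76 and 0.99 for the second probe on 3 arrays and 0.24, 0.18 and 0.04 for the first. In IVTIII the first probe had no value on any array and the second read 0.21, 0.54, 0.41 and 0.37 (mean 0.38 ± 0.14), where 44.4% of complete probes had a mean of larger size. GA at 10 pg gave 0.96, 0.85, -0.06 and 0.24 for the second probe, so the arrays lay on both sides of 0. The lowest value of unamplified cDNA, 4.07 for the first probe and 4.41 for the second, was above the highest of any amplified target, 2.65 and 3.04.

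**Figure D2:**
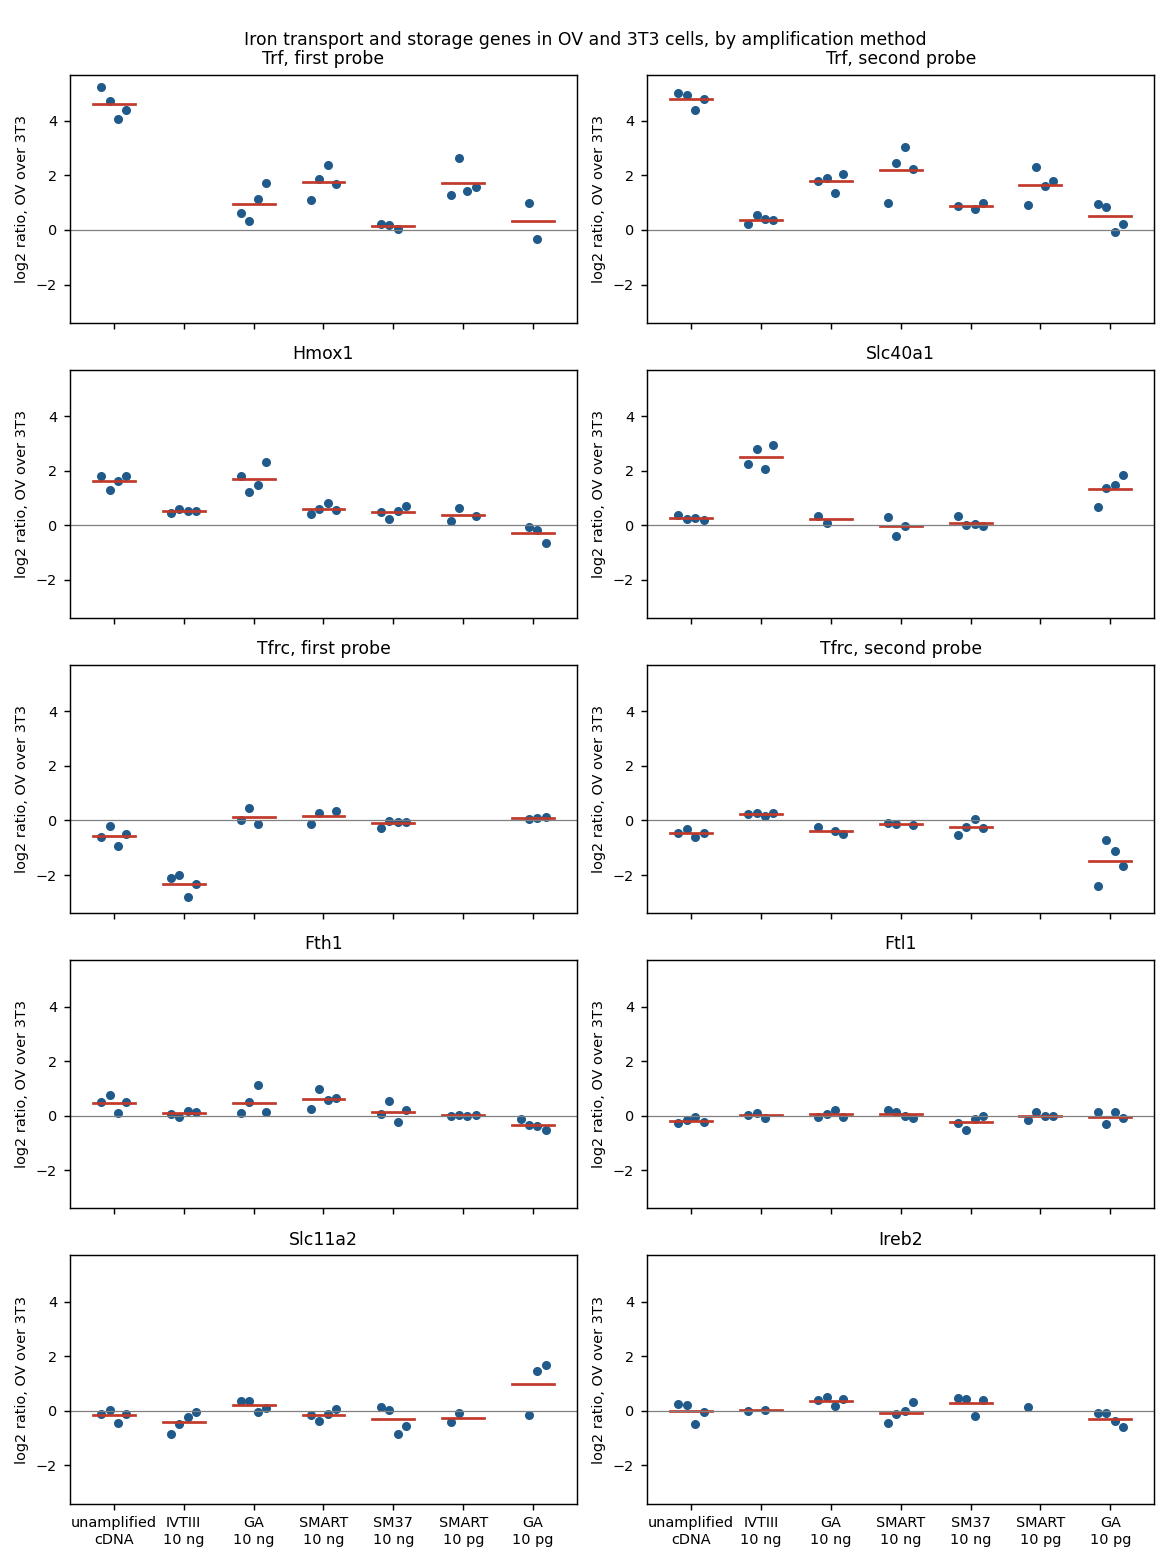
Log2 ratio of OV over 3T3 (vertical axis) for 10 probes of the 8 genes in 7 comparisons (horizontal axis). Points are arrays and red lines are means where at least 2 arrays had a value. Trf lay between 4.07 and 5.24 in unamplified cDNA and at most at 3.04 elsewhere, Hmox1 was high in unamplified cDNA and GA at 10 ng, and Slc40a1 and the first Tfrc probe departed from 0 by over 2 in IVTIII only.

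Hmox1 was the other gene of the list with a mean over 1 in size in unamplified cDNA. It read 1.82, 1.28, 1.62 and 1.80 there (mean 1.63 ± 0.25, 3.09-fold higher in OV), with 1.75% of complete probes having a mean of larger size. GA at 10 ng kept this size, with 1.79, 1.23, 1.46 and 2.34 (mean 1.70 ± 0.48), and 1.86 without the second GA array. The arrays of unamplified cDNA and GA overlapped. Ratios are not adjusted for the spread of each method, which was smallest in SMART at 10 ng. All values of IVTIII (0.43 to 0.60), SMART (0.42 to 0.81), SM37 (0.22 to 0.72) and SMART at 10 pg (0.15 to 0.63 on 3 arrays) were above 0 and below the lowest value of unamplified cDNA. GA at 10 pg alone gave values below 0, with -0.08, -0.17 and -0.65 on 3 arrays. Between parallel amplifications of OV RNA by GA at 10 pg Hmox1 read -0.18 and -0.38.

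Slc40a1, the exporter, was close to 0 in unamplified cDNA, with 0.38, 0.24, 0.25 and 0.20 (mean 0.27 ± 0.08), and 42.1% of complete probes had a mean of larger size. In IVTIII it read 2.23, 2.78, 2.07 and 2.94 (mean 2.51 ± 0.42, 5.68-fold), rank 11 from the highest of 4599 complete probes, and 2.60 without the first IVTIII array, whose label names 3T3 only. Every IVTIII array lay above every array of the other comparisons. Parallel IVTIII amplifications of OV RNA read 0.14 and -0.23, near 0. GA at 10 pg also gave high values, of 0.67, 1.37, 1.49 and 1.83 (mean 1.34 ± 0.49). Here the parallel amplifications of OV RNA differed as much from each other, at 1.49 and 1.37, although no second cell line was involved. GA at 10 ng (0.35 and 0.08 on 2 arrays), SMART (0.30, -0.40 and -0.03 on 3 arrays) and SM37 (0.34, 0.00, 0.04 and -0.04) stayed near 0.

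Tfrc, the receptor, was lower in OV in unamplified cDNA by both probes. The first read -0.62, -0.22, -0.93 and -0.50 (mean -0.57 ± 0.30) and the second -0.47, -0.31, -0.62 and -0.46 (mean -0.47 ± 0.13). Within each array the first minus the second probe was between -0.31 and 0.08, so the probes gave like ratios without amplification. In IVTIII the first probe read -2.10, -2.01, -2.82 and -2.34 (mean -2.32 ± 0.36, 4.98-fold lower in OV), rank 18 from the lowest of 4599, while the second read 0.24, 0.27, 0.16 and 0.27 (mean 0.24 ± 0.05). Without the first IVTIII array the means were -2.39 and 0.23. The difference of the probes was -2.55 ± 0.32 over the 4 arrays. Parallel IVTIII amplifications of OV RNA differed by 1.33 and 0.66 at the first probe and by 0.57 and 0.26 at the second.

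GA at 10 pg split the Tfrc probes in the other direction. The second probe read -2.40, -0.70, -1.13 and -1.68 (mean -1.48 ± 0.74, and -1.17 without the first array), and the first read 0.04, 0.11 and 0.14 on 3 arrays. Between parallel GA amplifications of OV RNA from 10 pg the second probe read -1.92 and -1.03, within the range of the arrays of OV against 3T3, and the first read -0.10 and -0.75. At 10 ng GA gave -0.24, -0.39 and -0.49 for the second probe and 0.03, 0.44 and -0.13 for the first. In GA from 100 pg the second probe differed by 0.74 and 0.65 between replicas, and between neural stem cell pools by 0.76 and 0.70. In SMART and SM37 at 10 ng both probes stayed between -0.52 and 0.33.

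**Figure D3:**
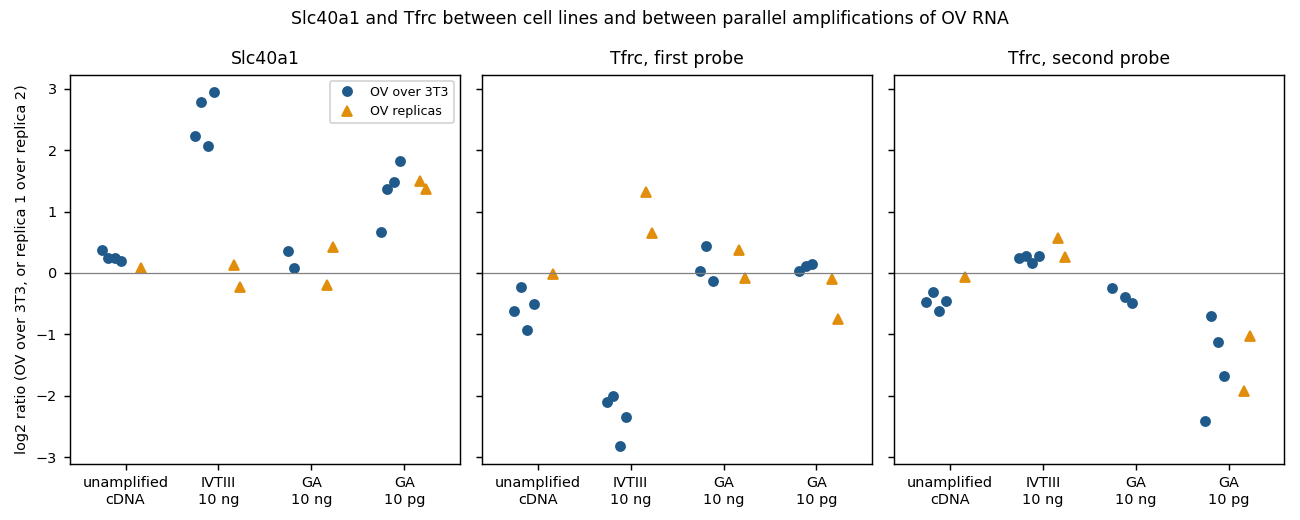
Log2 ratio (vertical axis) of Slc40a1 and both Tfrc probes by method (horizontal axis). Circles are arrays of OV over 3T3 and triangles are arrays of replica 1 over replica 2 of OV RNA. In GA at 10 pg the triangles of Slc40a1 (1.49 and 1.37) and of the second Tfrc probe (-1.92 and -1.03) lay among the circles, and in IVTIII those of Slc40a1 (0.14 and -0.23) did not.

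Slc11a2, the divalent metal transporter, was near 0 in unamplified cDNA, at -0.10, 0.02, -0.44 and -0.12 (mean -0.16 ± 0.20). In GA at 10 pg it read -0.17 on the second array and 1.46 and 1.68 on the third and the fourth, and between parallel amplifications of OV RNA 1.87 and 0.77. In IVTIII it ranged from -0.86 to -0.04, and parallel amplifications of OV RNA read -0.64 and -0.65. The other comparisons ranged from -0.86 to 0.38, with arrays on both sides of 0 in GA at 10 ng, SMART and SM37.

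The ferritin chains had small ratios between the lines. Fth1, the heavy chain, read 0.50, 0.77, 0.10 and 0.50 in unamplified cDNA (mean 0.47 ± 0.28), and it was above 0 on all 4 arrays of GA at 10 ng (0.09 to 1.14) and SMART at 10 ng (0.24 to 0.98) as well. In IVTIII (-0.04 to 0.19) and SM37 (-0.23 to 0.53) its arrays lay on both sides of 0. On the replica array of unamplified cDNA, with OV RNA in both channels, Fth1 was at -0.38. In GA at 10 pg it read -0.14, -0.35, -0.39 and -0.52, all below 0, in a comparison whose complete probes had a median of -0.119. In SMART at 10 pg Fth1 stayed between -0.01 and 0.04. Ftl1, the light chain, read -0.27, -0.16, -0.06 and -0.22 in unamplified cDNA (mean -0.18 ± 0.09). On the self-self array of unamplified cDNA, with OV RNA in both channels, Ftl1 was at -0.34, and on the replica array at -0.40, each larger in size than on any unamplified array of OV against 3T3. Ftl1 ranged from -0.54 to 0.21 in the amplified comparisons.

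Ferritin genes have many near-identical copies in the mouse genome, and an oligonucleotide may bind their transcripts as well. The copies on the array gave values of their own in unamplified cDNA: Fth-ps2 was at 0.49 ± 0.38, Fth-ps3 at 1.12 ± 0.19 and Ftl2-ps at -0.04 ± 0.14 (n = 4 each). How far these probes share signal with Fth1 and Ftl1 was not tested.

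Ireb2, the RNA-binding regulator, was near 0 in unamplified cDNA, at 0.27, 0.21, -0.47 and -0.05 (mean -0.01 ± 0.34). In GA at 10 ng all arrays were above 0 (0.16 to 0.50) and in GA at 10 pg all were below it (-0.60 to -0.08). Its probe is measured on 23 of the 28 arrays of OV against 3T3.

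Genes of like pattern were sought over these 28 arrays by the root mean square difference of log2 ratios. For Hmox1 the nearest of 5252 genes were Cyb5a, which encodes a cytochrome that passes electrons in the endoplasmic reticulum (difference 0.30 over 26 arrays), and Gdap2 (0.40 over 26 arrays). Cyb5a read 1.67 ± 0.24 in unamplified cDNA, 1.57 ± 0.27 in GA at 10 ng and -0.46 ± 0.17 in GA at 10 pg. For Trf as the mean of its probes the nearest of 5601 genes were Selenop, a secreted selenium carrier (0.72 over 28 arrays), and the uroplakin Upk1b (0.76 over 24 arrays). By the first probe alone, among 1463 genes, they were the chemokine gene Cxcl12 (0.56 over 20 arrays) and Upk1b (0.65 over 21). By the second, among 5054 genes, they were Upk1b (0.68 over 23 arrays) and Cxcl12 (0.74 over 22). Neither Cxcl12 nor Upk1b had a value in IVTIII, where the second Trf probe did. These arrays share RNA pools and methods, so the differences describe likeness in this set only.

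Other genes of iron biology, in 6 lists with 94 genes of which 79 are on the array, were tested in limma. The lists were chosen with earlier results of these hybridizations known, so their share of calls is a description. A gene was called at a log odds score (LOD) above 0, and 67 had a value on all 4 arrays of unamplified cDNA. Of these 17 were called, 9 higher and 8 lower in OV, which is 25.4% where 16.1% of all 10185 genes tested were called. Their median was -0.08, against 0.00 for all genes. The count fell to 7 without the first array, 9 without the third and 10 without the fourth. Calls over all genes fell in the same fits, to 790 of 10250, 1050 of 10328 and 941 of 10450. Because the arrays of each method reuse the same 2 RNA pools, these tests measure the spread of amplification and hybridization and not that between cultures. The main fits also treat the 4 arrays as independent, although dye swaps share targets.

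Among regulators of iron balance 4 of 9 were called, all higher in OV. Counts of each list in unamplified cDNA stand against 16.1% of all genes called. Bmper, a binding protein of bone morphogenetic proteins, the family that drives hepcidin, was at 3.10 ± 0.71 (limma adjusted p = 0.000399, called in 4 of 4 fits that left out 1 array). Bmp6, a ligand of that family, was at 1.05 ± 0.31 (limma adjusted p = 0.00112, 1 of 4 fits). Neo1 and Hif1a were the other calls, at 0.71 ± 0.06 (4 of 4 fits) and 0.54 ± 0.14 (1 of 4 fits). Hepcidin itself, Hamp, was at -0.15 ± 0.09 and was not called.

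Of 12 genes tested for uptake and transport 1 was called higher in OV and 3 lower, where 16.1% of all genes were called. The 3 called lower belong to the Steap family of metalloreductases, of which 4 were tested. This family was not a list of its own and was singled out after the values were seen. Steap3, the reductase of the transferrin endosome, was at -1.58 ± 0.46 (limma adjusted p = 0.00087, 3 of 4 fits), Steap1 at -1.18 ± 0.09 (4 of 4 fits) and Steap2 at -0.79 ± 0.04 (4 of 4 fits). The heme transporter Slc48a1 was higher, at 0.73 ± 0.18 (1 of 4 fits). Steap4, the remaining member of the family, was at 1.12 ± 0.48 and was not called.

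Of 5 genes of ferritin turnover and ferroxidase function 2 were called, both higher in OV. Ncoa4, the receptor that brings ferritin to the lysosome, was at 1.52 ± 0.13 (limma adjusted p = 8.52e-05, 4 of 4 fits), and the ferroxidase ceruloplasmin, Cp, was at 1.06 ± 0.35 (2 of 4 fits). In heme synthesis and breakdown 1 of 15 was called higher (Fech, which inserts iron into heme, in none of the 4 fits) and 2 lower. The biliverdin reductase Blvrb was at -1.44 ± 0.29 (limma adjusted p = 0.000392, 4 of 4 fits). Blvra, the reductase of the biliverdin that Hmox1 forms, was at -0.10 ± 0.12 and was not called. Iscu, the scaffold of iron-sulfur cluster assembly, was at 0.83 ± 0.22 (2 of 4 fits). Of 14 mitochondrial genes only Iscu and Glrx5 (-0.71 ± 0.20, 1 of 4 fits) were called, a share near that of all genes. In the Nrf2 pathway, whose factor induces Hmox1, 2 of 12 were called, both lower in OV (Gclc and Txnrd1, each in 1 of 4 fits). This share is near the 16.1% of all genes called, and a link to Hmox1 was not tested. The median of the 12 was -0.29, and Nqo1, a standard target of the pathway, was at -0.76 ± 0.32 without being called. Fech, Glrx5, Blvra, Gclc, Txnrd1, Neo1, Hif1a, Hamp, Steap4 and Nqo1 were named after their values were seen.

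**Figure D4:**
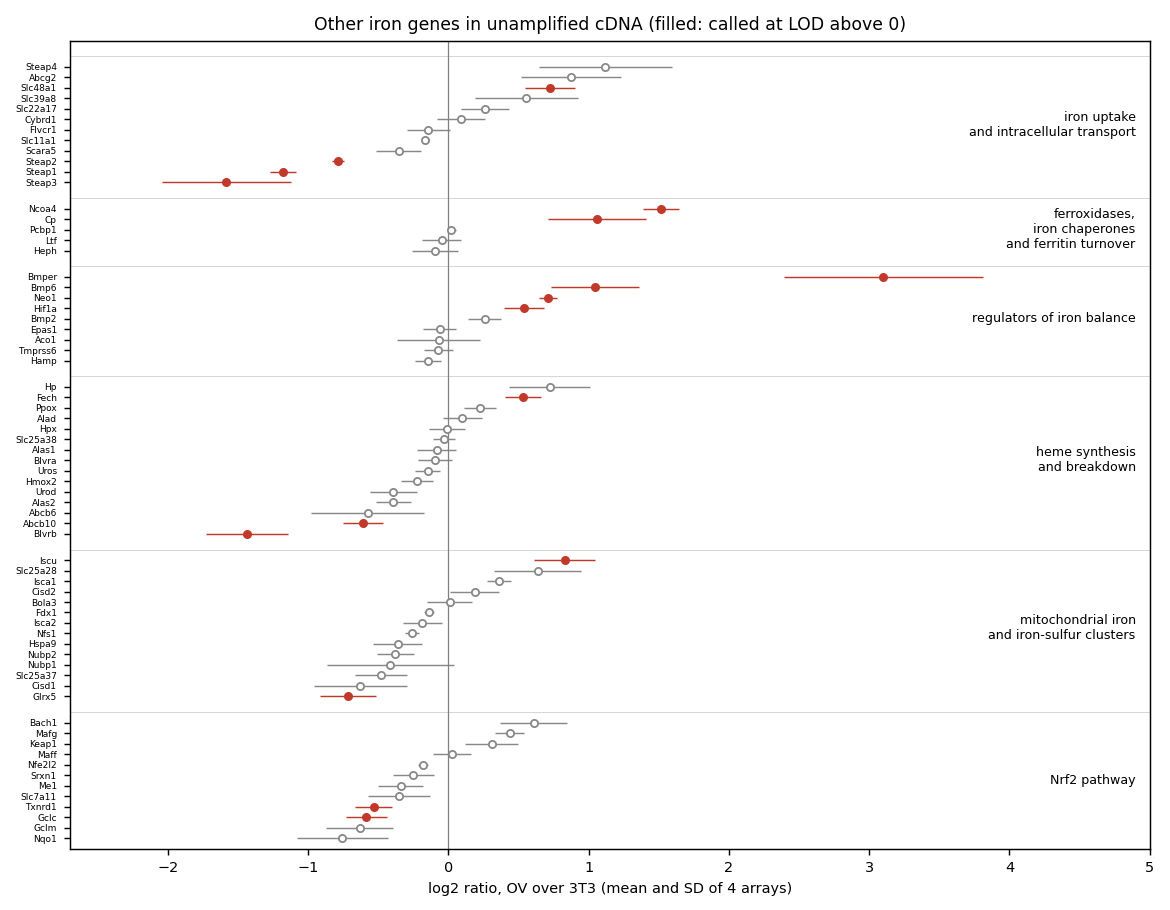
Mean log2 ratio of OV over 3T3 in unamplified cDNA (horizontal axis) of 67 other iron genes by list, with bars of 1 SD over 4 arrays. Filled red points are the 17 called genes. Bmper (3.10) and Ncoa4 (1.52) lay farthest to the right among them and Steap3 (-1.58) and Blvrb (-1.44) farthest to the left.

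Amplified targets had fewer of these genes with a value on all 4 arrays, and the counts called were lower. As a share of those tested, calls were 25.4% in unamplified cDNA, 26.7% in IVTIII, 27.0% in SM37 and 30.8% in GA at 10 pg. The share was 10.5% in GA at 10 ng and 5.66% in SMART at 10 ng. Calls over all genes without single arrays are given at the end. IVTIII called 8 of 30 (4 higher and 4 lower), where 22% of all genes tested were called. Its count was 5 without the first or the fourth array and 4 without the second. SM37 called 10 of 37, 9 of them lower, at a background of 13%. GA called 4 of 38 (all lower, 2 without the first or the third array) at 8.23%, and SMART 3 of 53 (1 without the second or the third array) at 3.54%. From 10 pg, GA called 8 of 26 at 5.45%, with 2 left without the third or the fourth array. Without the first array, which held few probes, it called 5 of 57 (227 of 9978 over all genes). With a value on at least 3 arrays it called 8 of 58 (284 of 10088), so its share depended on missing values. SMART at 10 pg called 0 of 6 at 8.97%, with 1 gene at an unadjusted limma p under 0.05 and 1 at an adjusted p under 0.05.

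Some of the 10 named genes were called in amplified comparisons too, as given below, Cp among them only with the opposite sign. Ncoa4 and Slc48a1 were tested in amplified comparisons and were not called. Steap1 and Bmp6 had no amplified comparison with a value on all 4 arrays and could not be called. The named genes were picked for large ratios in unamplified cDNA. The share of all genes called in any amplified comparison was not worked out. Steap2 was called lower in IVTIII (-1.05 ± 0.19), Steap3 lower in SM37 (-0.89 ± 0.15) and Iscu higher in SM37 (0.71 ± 0.14), each with the sign of unamplified cDNA and in 4 of 4 fits that left out 1 array. Bmper was called higher in IVTIII (1.90 ± 0.22), SMART (1.05 ± 0.25) and GA at 10 pg (2.23 ± 0.39) too. The call of Bmper at 10 pg was lost with arrays scaled to a common spread (LOD -0.82), and parallel GA amplifications of OV RNA differed at Bmper by -2.55 and -2.33. Blvrb was called lower in SM37 (-1.10 ± 0.18) and SMART (-0.80 ± 0.33) but higher in GA at 10 pg (2.40 ± 0.70, 2 of 4 fits), where replicas of OV RNA read 0.92 and 0.62. Cp, higher in unamplified cDNA, was called lower in GA at 10 pg (-2.24 ± 0.77), with -1.50 and -0.48 between replicas. That call of Cp held in 1 of 4 fits that left out 1 array and was lost with arrays scaled (LOD -0.34). It was also lost with a replicate block of assumed dye-swap pairs (LOD -1.42, limma adjusted p = 0.0515).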

How the data were processed

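The file used holds 1 log2 value per probe and array, a ratio of the dyes, for 56 arrays. The authors made these deposited log2 ratios from scans in GenePix Pro 4.0 by background subtraction and print-tip lowess in limma. Spot intensities were not used here, so signal over background is unknown, and why some values are missing is not given in the sources used here. Of 21997 probes 231 controls were left out, 16632 others had 1 gene symbol, and probes of 1 symbol were averaged.

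Groups and dyes were taken from the labels. The study gives the dye ratio in both directions, and Cy5 over Cy3 was taken as likely. Input amounts follow the study where labels differ. All 56 arrays were compared, and the highest correlation between any 2 was 0.884.

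The members and lists were chosen with earlier results of these data known. Other iron genes were tested per comparison with limma 3.58.1 in R 4.3.3 (lmFit and eBayes, prior proportion 0.01, LOD above 0, a value on all 4 arrays), with Benjamini-Hochberg adjusted p over all genes tested. In data simulated for unamplified cDNA with 10185 genes, 46% of changes of 0.5 and 95% of changes of 1 (log2) were called, with 11 false calls. The simulated arrays were independent, drawn from the SD of each gene, and 100 genes were changed at each size. Real dye-swap arrays share targets, so these figures do not give the error rate of the calls above. Named genes are the 8 members, the 10 called other iron genes with the largest mean in unamplified cDNA and 1 sign on all arrays, the 2 genes nearest to each member with a mean over 1 in size there and values on at least 20 arrays, and markers. Likeness by probe for Trf was added after the values were seen. Alternatives covered the threshold, missing values, array scaling, a replicate block, a dye term and leaving out each array. Python 3.11.15 with matplotlib 3.10.9 drew the plots.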

Additional observations from a re-analysis of the deposited data

Results flagged for a closer look

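Over 83 sets of 4 complete arrays, 1 array stood far from the other 3 by Dixon's criterion at the 95% level, where chance flags about 1 in 20 sets. Ireb2 in SM37 was at -0.17 on the third array, and the mean of the others was 0.45.

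In 19 cases every array of one comparison lay above 0 and every array of another below it. These differences between comparisons were not tested. Most of them set GA at 10 pg against another method. Fth1 was lower in GA at 10 pg than in unamplified cDNA by a log2 difference of -0.81, than in GA at 10 ng by -0.82 and than in SMART at 10 ng by -0.96. Ireb2 was lower in GA at 10 pg than in GA at 10 ng by -0.66. The second Tfrc probe was 0.70 higher in IVTIII than in unamplified cDNA, and in GA at 10 pg it differed from IVTIII by -1.72.

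Blvrb was higher in GA at 10 pg than in unamplified cDNA by 3.84, than in SMART at 10 ng by 3.20 and than in SM37 by 3.50. Cp differed from unamplified cDNA by -3.30 in GA at 10 pg and by -1.44 in SM37. Iscu in GA at 10 pg differed from unamplified cDNA by -1.53, from SM37 by -1.41, from SMART at 10 pg by -1.05, from SMART at 10 ng by -0.87 and from GA at 10 ng by -0.86. Its arrays in GA at 10 pg read -0.09, -0.07, -2.18 and -0.45, so the third made most of the mean. It was not called there, and replicas of OV RNA read 0.61 and -0.02. Slc48a1 in GA at 10 pg differed from unamplified cDNA by -1.14, from GA at 10 ng by -1.06 and from SM37 by -0.61. Parallel GA amplifications of OV RNA from 10 pg read -1.62 and -1.32 at Slc48a1. Both were larger in size than on any GA array of OV against 3T3 at 10 pg.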

How the results depend on the processing

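Counts of other iron genes called moved with the threshold and with single arrays. At a Benjamini-Hochberg adjusted p under 0.05 in limma, unamplified cDNA called 46 of 67 in place of 17. Over all genes 4973 of 10185 were called there. GA called 11 of 38 in place of 4 (all genes 1525 of 5458) and SMART 5 of 53 in place of 3 (523 of 7405). SM37 called 23 of 37 in place of 10 (2483 of 5779) and IVTIII 12 of 30 in place of 8 (2221 of 3972). SMART at 10 pg called 1 of 6 in place of 0 (386 of 1159), and GA at 10 pg stayed at 8 of 26 (756 of 4426). The share in IVTIII was below that of all genes, and that in GA was near it. GA called 2 with a dye term (247 over all genes). GA at 10 pg called 4 with arrays scaled to a common spread (158 over all genes) and 5 with a dye term (149). With a replicate block of assumed dye-swap pairs it called 4 (114 over all genes), 3 higher and 1 lower. Without the block 3 were higher and 5 lower. Leaving out each array gave 7 to 18 genes in unamplified cDNA, 4 to 7 in IVTIII, 2 to 5 in GA, 1 to 4 in SMART, 8 to 11 in SM37, 0 in SMART at 10 pg and 2 to 7 in GA at 10 pg. Over all genes those fits gave 790 to 1739 calls in unamplified cDNA, 557 to 758 in IVTIII and 212 to 347 in GA. SMART gave 85 to 386, SM37 473 to 598, SMART at 10 pg 69 to 97 and GA at 10 pg 81 to 231. Fewer arrays enter the fits that leave out 1. Causes of the other changes were not tested.

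The labels do not pair arrays, and the correlation within pairs assumed from the hybridization numbers ranged from -0.27 in SMART at 10 pg to 0.45 in GA at 10 pg. With the replicate block Cp was not called in GA at 10 pg (LOD -1.42), and the counts in the other comparisons stayed within 1.5 times.

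Of 348 alternative means of the 8 genes, 347 moved by less than 1 SD of the arrays, the exception being Trf in unamplified cDNA at 4.70 over complete probes. Leaving out 1 array or taking the median cannot move a mean by 1 SD, so most of this count was fixed in advance. Only array scaling (53 means) and taking complete probes (42 means) could do so, and the latter changes nothing for genes with 1 probe. The sign changed in 17, all for means of at most 0.10 in size. Of 89 probe means of Trf and Tfrc without 1 array, an alternative added after seeing the data, 1 changed sign. The number of arrays limits the precision, and genes without a value on all 4 arrays were not tested.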
